A study of Bos taurus with 6 samples.

Results

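The open reading frame genes are genes that still carry a provisional name, made of the letter C, a chromosome, the letters orf and a running number. They were taken from the deposited table of genes as the Ensembl entries (identifiers starting with ENSBTAG) with such a name, written either with the cattle chromosome, an H and the human chromosome (C5H12orf54) or with the human chromosome alone (C5orf49). The rule used no measured value and found 246 of the 47249 genes in the table, of which 225 had the long form of the name and 21 the short form. The study sequenced total RNA, depleted of ribosomal RNA, from the testes of Wandong cattle. Each of the 6 libraries came from its own animal, 3 of them calves not yet mature, at 3 months of age, and the others mature bulls of 3 years, all untreated. The comparison asks which transcripts differ between a testis before puberty and a testis that makes sperm. Levels are given as FPKM, a read density that is corrected for the length of the transcript and for the size of the library, so that genes of different length can be set beside each other. The tables held no counts, so the number of reads behind each value is unknown. The spread between the libraries of a group is the only measure of error.

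A gene gets an open reading frame name when a genome holds a stretch that can encode a protein but no function of that protein is known. Such genes are renamed once a function is found, which for many of them was a part in the sperm tail, the acrosome or meiosis. The adult testis is known for transcribing many genes that other tissues leave silent, above all in meiotic cells and in the haploid spermatids that follow them, while the testis of a young calf holds Sertoli cells, Leydig cells and early germ cells but no spermatids.

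The library labelled calf 3 stood apart from the other calves. The summed FPKM of 12 neural marker genes was 13.9 in calf 1, 14.3 in calf 2 and 14464 in calf 3, against 14.4 to 21.8 in the bulls, and all 12 were higher in calf 3 than in the other calves. These 12 were chosen knowing that calf 3 stood apart, so their agreement is no independent check of its label. The 6 Leydig cell markers summed to 1389 and 1087 in calf 1 and calf 2 and to 0.502 in calf 3, where 2 of them were listed at 0. The 10 Sertoli cell markers summed to 2823, 2715 and 872 in the calves, 8 of them being lowest in calf 3 and 3 listed at 0 there. CLDN11, at 429, and CLU, at 423, made up most of the sum in calf 3. Its values went against the label of testis, so counts are given with and without this library. The 10 spermatid markers summed to 4.21, 4.34 and 2.05 in the calves and to between 13762 and 15647 in the bulls, and the 8 spermatocyte markers to 21.99, 28.7 and 10.7 against between 291 and 351. These sums moved with every rise described below, and their part in it was not tested. In whole testis, fewer cells of a type and less RNA per cell cannot be told apart.

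The open reading frame genes were mostly higher in the bulls. Of the 246, 207 reached an FPKM of 1 in at least 3 libraries and were tested, 119 were called higher in bulls and 7 lower, and 81 were not called. A call needed a 2-fold change on the log2(FPKM + 1) scale and an adjusted p under 0.05 with limma and Benjamini-Hochberg adjustment over all 18115 genes tested. The 119 were 57.5% of those tested, against 35.7% of all genes tested, and the 7 were 3.38% against 9.61%. The median log2 fold change was 1.46 (25th to 75th percentile 0.08 to 3.68), against 0.43 (-0.51 to 1.63) over all genes tested. All open reading frame genes here are Ensembl entries, while the genes tested also include loci assembled by the authors. Of the 14957 Ensembl genes tested, 27.3% were called higher and 11.2% lower, with a median of 0.17. The tail of large changes was long, since 71 open reading frame genes (34.3%) had a log2 fold change of at least 3, as did 9.70% of all genes tested. In 133 of them (64.3%) every bull was above every calf, against 46.1% of all genes tested, and in 24 (11.6%) every bull was below every calf, against 21.3%. Every call was among these. Without calf 3, 122 were higher and 13 lower, against 37.9% and 13.6% of all genes, and 116 of the 119 and all 7 kept their call. The excess differed with the mean FPKM, a split that uses the measured levels. The shares of all genes in this split include the assembled loci, and Ensembl genes alone were not split by level. Under a mean FPKM of 3, 5 of 25 (20%) were called higher, fewer than the 44.4% of all genes. From 3 to 10 the shares were 43.6% against 26.4%, from 10 to 30 71.6% against 33.7%, and at 30 or more 86.5% against 45.8%.

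The filter itself favours a gene that is silent in 1 group, so the tested genes were split by where they reached an FPKM of 1. In 54 no calf reached it and only the bulls carried the gene past the filter; all 54 were called higher, as were 95.0% of all genes of that kind. In 151 it was reached in both groups, and there 65 (43.0%) were called higher and 6 (3.97%) lower, against 22.2% and 9.86% of all genes of that kind. The other 2 reached it in calves only, and 1 of them was called lower. The split in favour of the bulls also depended on the scaling. After quantile normalization the median of all genes tested moved from 0.43 to -0.26. Of the 207 open reading frame genes tested, 100 were then called higher and 26 lower, against 3827 and 4538 of all 18115 genes tested. Measured from the median of all genes, the median of the open reading frame genes was 1.03 as deposited and 1.09 after quantile normalization.

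**Figure D1:**
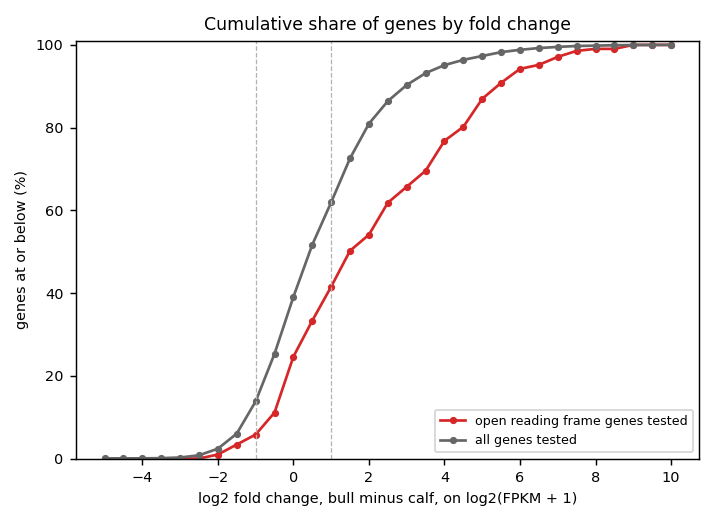
Cumulative share of genes, in percent, at or below each log2 fold change of bull against calf on the log2(FPKM + 1) scale, for the 207 open reading frame genes and all 18115 genes tested; dashed lines mark a 2-fold change. The curve of the open reading frame genes lies to the right of the other between a log2 fold change of -1 and 5, with medians of 1.46 and 0.43.

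Each library showed the difference on its own. In the calves 142, 142 and 145 of the 246 genes reached an FPKM of 1, and in each bull 203 did. At an FPKM of 10 the counts were 27, 30 and 36 in the calves and 120, 127 and 124 in the bulls. No calf had an open reading frame gene at 100 or more, and the bulls had 16, 19 and 19. Their summed FPKM was 1198, 1298 and 1281 in the calves and 6845, 7211 and 7332 in the bulls, or 1259 ± 53.2 against 7129 ± 254 (SD, n = 3 each), and the groups did not overlap (two-sided exact permutation test, p = 0.1, the smallest that 20 labelings allow). Among the other genes of the table the share at an FPKM of 1 was 48.7% to 49.6% in the calves and 50.8% to 51.9% in the bulls, while among the open reading frame genes it was 57.7% to 58.9% and 82.5%. The other genes were not counted at an FPKM of 10 or 100.

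In 45 open reading frame genes every calf was under an FPKM of 1 and every bull at 10 or more, and in 6 of these every bull was at 100 or more. The 45 were among the 54 that passed the filter through the bulls alone, as 3570 of all 18115 genes tested did. How many of all genes met the stricter limits was not counted. The most increased open reading frame gene was C5H12orf54 (ENSBTAG00000016996, chromosome 5, 31543719 to 31568121), to which no role list assigned a function. Its FPKM was 0.104, 0.338 and 0 in the calves, given here and below in the order of their numbers, and 426, 425 and 488 in the bulls. The calves were at or near 0 and the bulls lay close together, with a log2 fold change of 8.61 (SE 0.17, adjusted p = 2.53e-06). C25H16orf82, which lies on chromosome 25 from 24671805 to 24673861 and whose human counterpart is also known as TNT, had 0.0102, 0 and 0.0361 in the calves and 308, 444 and 374 in the bulls. The bulls spread more widely here than for C5H12orf54, yet far above every calf (log2 fold change 8.52, SE 0.18, adjusted p = 2.68e-06). C12H13orf46 was listed at 0 in calf 1 and calf 2, at 0.0900 in calf 3 and at 231, 227 and 256 in the bulls (log2 fold change 7.86, SE 0.14). These 3 genes, with C11H9orf50, C15H11orf71 and C7H19orf71, also had the highest mean FPKM of all open reading frame genes over the 6 libraries, a mean that for them is nearly all bull level.

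C11H9orf50 was not silent in the calves. It had 1.10, 1.22 and 0.338 in the calves and 287, 285 and 264 in the bulls, with calf 3 the lowest (log2 fold change 7.25, SE 0.23). C15H11orf71 had 2.96, 3.29 and 1.87 in the calves, the highest calf level among the 15 most increased, and 252, 247 and 216 in the bulls (log2 fold change 6.03, SE 0.20). C20H5orf47 had 1.19, 2.04 and 0.121 in the calves and 98.2, 111 and 120 in the bulls, and its spread in the calves gave it the largest adjusted p of the 15, 6.39e-05. C8H8orf74 was listed at 0 in all 3 calves and had 51.0, 61.8 and 75.7 in the bulls, so no fold is given. The others of the 15 were C26H10orf120, C3H1orf56, C13H20orf144, C25H16orf90 and C15H11orf16, whose log2 fold changes were 7.013, 6.997, 6.986, 6.936 and 5.93, and the named genes C15H11orf94, C7H19orf71 and C8H9orf135 described below. Over the 15, no calf exceeded 3.29 and no bull was under 51.0, and all 15 kept their call without calf 3, at log2 fold changes of at least 5.42.

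**Figure D2:**
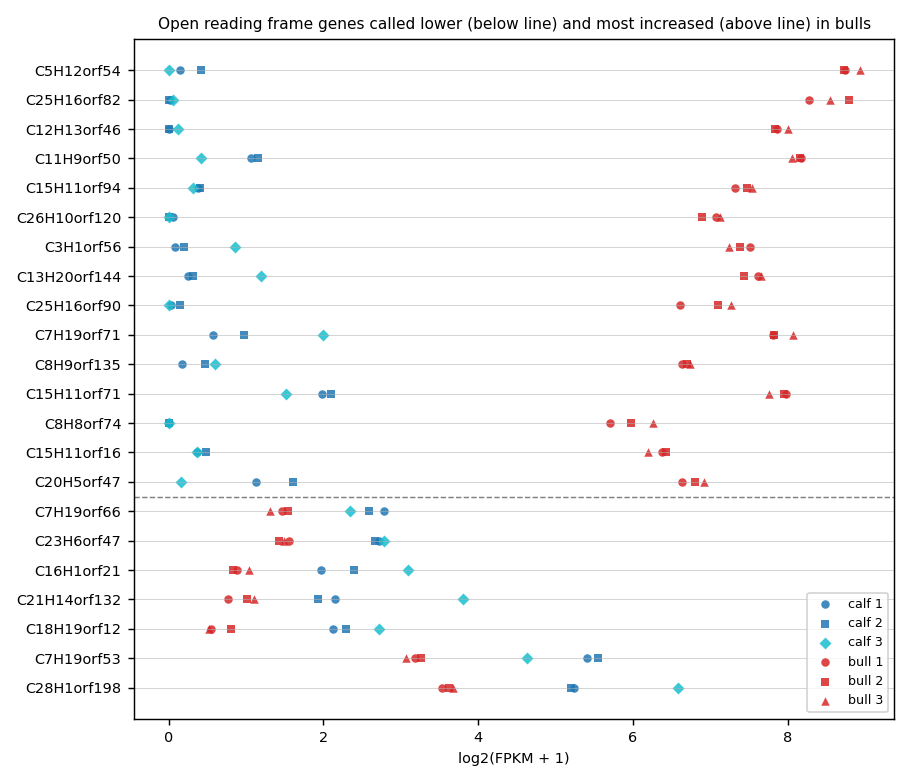
Level of each library, as log2(FPKM + 1), for the 15 open reading frame genes most increased in bulls (above the dashed line) and the 7 called lower (below it); blue marks calves, cyan calf 3 and red bulls. In all 22 genes the bull points and the calf points do not overlap, and calf 3 is the highest calf in 5 of the 7 lower genes.

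The bulls resembled each other closely in the genes called higher. The ratio of the highest to the lowest bull had a median of 1.26 over the 119, and it was above 2 in 6 genes, named here after their values were seen. C28H10orf53 had 34.0, 110 and 43.2 in the bulls, with bull 2 far above the others. C13H20orf141 had 12.5, 25.5 and 32.9, and C3H1orf141 7.24, 8.08 and 17.7. The X-linked CXHXorf65 had 1.51, 2.41 and 3.66, and CXHXorf66, on an unplaced scaffold and listed at 0 in all calves, had 3.43, 4.70 and 11.3. C17orf100 had 0.894, 0.334 and 0.269 in the calves and 1.37, 6.67 and 6.83 in the bulls, with bull 1 close to calf 1 (log2 fold change 1.83, SE 0.50, adjusted p = 0.0230), and its call was lost after quantile normalization, with a replicate block and without calf 2, bull 2 or bull 3.

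A role could be assigned from the human gene to 58 of the 246, in 7 lists. The largest list held 21 genes of the cilium and flagellum, that is of the microtubule axoneme and of the proteins that build it. Of these 21, 19 were called higher in bulls, none lower and 2 were not called, with or without calf 3. The 19 were 90.5%, against 35.7% of all genes tested and 27.3% of Ensembl genes. After quantile normalization 18 of the 21 were higher, as were 3827 of all 18115 genes tested. In 11 of the 21 no calf reached an FPKM of 1, so these passed the filter through the bulls alone, where 95.0% of all genes were called higher. Of the 10 that reached it in both groups, 8 were called higher, with a median log2 fold change of 3.17, against 22.2% and 0.11 over all genes of that kind. The median of the 21 was 4.82. C7H19orf71, named TEKTIP1 in RefSeq and known as a protein of the tektin bundle inside the doublet microtubules, had 0.489, 0.958 and 2.99 in the calves and 225, 226 and 267 in the bulls. It was highest in calf 3 among the calves and about alike in the bulls (log2 fold change 6.72, SE 0.37, adjusted p = 3.71e-05). C8H9orf135, which is CFAP95 and lines the inner wall of the doublet microtubules, had 0.123, 0.386 and 0.512 in the calves and 98.6, 103 and 106 in the bulls (log2 fold change 6.28, SE 0.17).

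C25H16orf71, which is DNAAF8 and takes part in assembling axonemal dynein motors, had 0.888, 1.20 and 1.87 in the calves and 124, 99.0 and 111 in the bulls (log2 fold change 5.62, SE 0.21). C5orf49, known in human as CFAP90, had 5.98, 7.55 and 1.57 in the calves and 120, 138 and 205 in the bulls (log2 fold change 4.82, SE 0.49). It was thus already measurable in calf 1 and calf 2 and lower in calf 3. The lesser changes of the list were C15H11orf49, C11H9orf116 and C15H11orf74, at log2 fold changes of 2.82, 2.05 and 1.11. C15H11orf74 (IFTAP, an intraflagellar transport protein) was no longer called after quantile normalization (0.40), with a common total (0.78) or without bull 1. The 2 not called were C14H8orf37, a photoreceptor and cilium gene, with 9.60, 7.21 and 14.2 in the calves and 14.5, 15.3 and 11.5 in the bulls, and C13H20orf194 (DNAAF9), with 5.24, 5.08 and 21.7 in the calves and 7.32, 7.89 and 5.73 in the bulls. In both, calf 3 was the highest calf and the groups overlapped.

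The list of spermatid, acrosome and sperm-egg fusion genes held 5 genes. C11H2orf16 was listed at 0 in every library, and the other 4 were called higher. Of all genes tested 35.7% were, and of Ensembl genes 27.3%. Of the 4, 3 passed the filter through the bulls alone, where 95.0% of all genes were called higher. Only C7orf61 reached an FPKM of 1 in both groups, where 22.2% of all genes were called higher. C15H11orf94, renamed FREY1, stabilises IZUMO1, the sperm protein that binds the egg. It had 0.300, 0.328 and 0.250 in the calves and 160, 177 and 185 in the bulls (log2 fold change 7.08, SE 0.14, adjusted p = 2.53e-06). C16orf92, known as FIMP and needed for the fusion of sperm and egg, had 0.0604, 0.0437 and 0.123 in the calves and 10.8, 11.5 and 14.2 in the bulls, a level far under that of C15H11orf94 (log2 fold change 3.60, SE 0.17). C7orf61 was present in the calves at 2.46, 3.34 and 2.84 and rose to 30.3, 36.9 and 38.8 in the bulls (log2 fold change 3.23, SE 0.18).

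The 3 genes with a role in meiosis moved far less than those of the flagellum, although the difference between the lists was not tested. C3H1orf146, the partner of SHOC1 in crossover formation also known as SPO16, had 8.72 and 9.89 in calf 1 and calf 2, was listed at 0 in calf 3, and had 11.6, 13.1 and 9.26 in the bulls. Only bull 3 fell within the range of calf 1 and calf 2, but the change was not called with calf 3 (log2 fold change 1.37, SE 0.94, adjusted p = 0.259) or without it (0.24). C7H19orf57, which is BRME1 and helps BRCA2 in meiotic recombination, had 2.91, 2.19 and 1.15 in the calves and 6.95, 5.47 and 5.57 in the bulls and was called higher (log2 fold change 1.22, SE 0.27, adjusted p = 0.00945), but not without calf 3 (0.98), with array weights or after quantile normalization. C16H1orf112, also known as FIRRM, a factor of DNA crosslink repair, had 3.12, 3.1002 and 0.836 in the calves and 3.18, 3.61 and 3.91 in the bulls, and was not called.

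**Figure D3:**
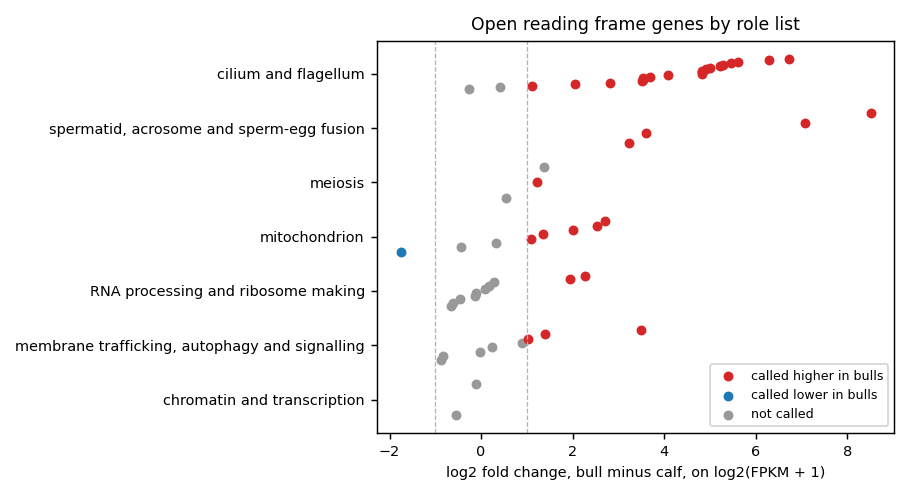
Log2 fold change of bull against calf on the log2(FPKM + 1) scale for each tested open reading frame gene with a role, 1 point per gene, coloured by call, in 7 rows of role lists; dashed lines mark a 2-fold change. The cilium and flagellum row is mostly right of the line, with 19 of 21 called higher, and the RNA processing row is centred near 0.

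Of the 8 mitochondrial genes, 5 (62.5%) were higher in bulls and 1 (12.5%) was lower, with or without calf 3. Of all genes tested, 35.7% and 9.61% were, and of Ensembl genes 27.3% and 11.2%. After quantile normalization 3 of the 8 were higher and 1 was lower, against 3827 and 4538 of all 18115 genes tested. C5H12orf10, which is MYG1, a mitochondrial exonuclease, had 7.60, 8.30 and 7.001 in the calves and 48.5, 49.8 and 49.5 in the bulls, with little spread in either group (log2 fold change 2.54, SE 0.14, adjusted p = 3.14e-05). C2H2orf69, whose loss in people causes a mitochondrial disease, had 5.31, 4.88 and 9.49 in the calves and 25.8, 30.6 and 28.6 in the bulls (log2 fold change 2.003, SE 0.26). C17H12orf65, a mitochondrial release factor also known as MTRFR, had 5.66, 7.997 and 6.86 in the calves and 17.2, 14.1 and 15.8 in the bulls (log2 fold change 1.10, SE 0.18), and lost its call after quantile normalization, with a common total and without calf 1. C25H16orf91, which is UQCC4 and assists assembly of respiratory complex III, had 13.2, 13.4 and 12.5 in the calves and 8.74, 9.65 and 9.58 in the bulls; the bulls were below every calf, but the change was under 2-fold (log2 fold change -0.45, SE 0.14, adjusted p = 0.0348).

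The 10 genes of RNA processing and ribosome making were mostly alike in both groups, with a median log2 fold change of -0.02. Called higher were 2 (20%) and lower none, against 35.7% and 9.61% of all genes tested and 27.3% and 11.2% of Ensembl genes. C29H11orf98 had 4.54, 5.57 and 4.44 in the calves and 31.9, 26.6 and 23.8 in the bulls (log2 fold change 2.28, SE 0.18). C24H18orf21, a subunit of the RNase MRP particle, had 15.6, 15.4 and 8.46 in the calves and 60.4, 47.9 and 48.6 in the bulls (log2 fold change 1.95, SE 0.27). C11H9orf78, a spliceosome protein, had 11.5, 15.6 and 18.5 in the calves and 16.1, 17.5 and 17.2 in the bulls, within the range of the calves, and C28H1orf131, of the small ribosomal subunit processome, had 7.90, 7.91 and 6.19 against 5.83, 6.85 and 7.38. After quantile normalization, 3 of the 10 were called lower, as were 4538 of all 18115 genes tested.

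Of the 8 genes of membrane trafficking, autophagy and signalling, 3 (37.5%) were higher and none was lower (4 and none without calf 3). Of all genes tested 35.7% were higher, and of Ensembl genes 27.3%. After quantile normalization 1 of the 8 was higher and 2 were lower, against 3827 and 4538 of all 18115 genes tested. C2H2orf88, the small anchor protein that holds type I protein kinase A at membranes, had 0.703, 0.690 and 7.49 in the calves and 27.1, 35.4 and 33.9 in the bulls, with calf 3 between the groups (log2 fold change 3.50, SE 0.66, and 4.28 without calf 3). C17H12orf49, which is SPRING1, a factor of the SREBP pathway of cholesterol synthesis, had 6.65, 7.52 and 8.23 in the calves and 18.0, 27.7 and 18.95 in the bulls (log2 fold change 1.39, SE 0.21), and was not called after quantile normalization. C6H4orf3, which encodes a micropeptide that binds the SERCA calcium pump, had 26.4, 30.04 and 27.9 in the calves and 14.2, 14.7 and 17.2 in the bulls. All bulls were below all calves, but the difference was under 2-fold (log2 fold change -0.83, SE 0.15, adjusted p = 0.00381), and the gene was called lower after quantile normalization, after scaling to a common total and with no fold limit. Of the 3 chromatin genes, C19H17orf49 (BAP18) had 15.6, 16.9 and 5.88 in the calves and 6.81, 7.08 and 9.21 in the bulls, C29H11orf95 (ZFTA) had 5.79, 6.44 and 2.43 against 3.52, 3.74 and 5.31, and C15H11orf53 stayed under 0.262 in every library and was not tested. Calf 3 was the lowest library in both tested genes, and neither was called.

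The 188 genes with no role list were close to the whole set in their share of calls. Of these, 151 were tested, 85 (56.3%) were called higher and 6 (3.97%) lower, with a median log2 fold change of 1.46. Of all genes tested 35.7% were higher and 9.61% lower, and of Ensembl genes 27.3% and 11.2%. Of the 151, 40 passed the filter through the bulls alone, where 95.0% of all genes were called higher. Of the 110 that reached an FPKM of 1 in both groups, 45 were called higher and 6 lower. Over all genes of that kind 22.2% and 9.86% were.

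The 7 genes called lower fell by 1.14 to 2.07 on the log2 scale. C28H1orf198 (chromosome 28, 3559263 to 3596135) had 36.9, 35.9 and 95.2 in the calves and 10.5, 11.3 and 11.8 in the bulls. Calf 3 was far above the other calves, yet calf 1 and calf 2 were also above every bull (log2 fold change -2.07, SE 0.39, adjusted p = 0.00534, and -1.61 without calf 3). C7H19orf53, whose product is named after a protein of a Leydig cell tumour, had 41.3, 45.8 and 23.8 in the calves and 8.09, 8.55 and 7.35 in the bulls, with calf 3 the lowest calf (log2 fold change -2.03, SE 0.27, adjusted p = 0.00114, and -2.31 without calf 3). C18H19orf12, a mitochondrial membrane gene mutated in a human disease of brain iron accumulation, had 3.35, 3.90 and 5.56 in the calves and 0.458, 0.748 and 0.439 in the bulls (log2 fold change -1.75, SE 0.20). The 6 Leydig cell markers together were not lower in the bulls, at 2150, 1451 and 2609, than in calf 1 and calf 2. The 10 Sertoli cell markers together were, at 449, 472 and 478. Not every marker moved with its sum. CLDN11 had 0.94 and 18.2 in calf 1 and calf 2 and 62.8, 84.03 and 73.3 in the bulls. INHBB also rose, and the other Sertoli cell markers were lower in every bull. Most of the Leydig sum was INSL3. Of the rest, STAR was higher in every bull, while HSD3B1 was lower in bull 1 and bull 2.

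The other 4 were expressed at lower levels. C21H14orf132 had 3.46, 2.80 and 13.0 in the calves and 0.701, 1.01 and 1.15 in the bulls, with calf 3 well above the rest (log2 fold change -1.67, SE 0.51, adjusted p = 0.0332). Its call was lost when any 1 bull was left out and with no filter on low values, and without calf 3 its log2 fold change was -1.08. C16H1orf21 had 2.93, 4.26 and 7.50 in the calves and 0.848, 0.787 and 1.06 in the bulls (log2 fold change -1.56, SE 0.30). C23H6orf47 had 5.62, 5.35 and 5.90 in the calves and 1.95, 1.69 and 1.82 in the bulls, the tightest of the 7 (log2 fold change -1.23, SE 0.15, adjusted p = 8.62e-04). C7H19orf66, renamed SHFL, is an interferon-induced gene that blocks ribosomal frameshifting, and had 5.92, 5.04 and 4.09 in the calves and 1.75, 1.92 and 1.49 in the bulls (log2 fold change -1.14, SE 0.19).

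Among the 81 genes not called, C15H11orf58 was the most even, with 48.5, 52.1 and 45.2 in the calves and 48.9, 49.5 and 47.2 in the bulls, or 48.6 ± 3.45 against 48.5 ± 1.22 (SD, n = 3 each). The bulls all lay within the range of the calves. C18H16orf70, which is PHAF1 and binds autophagy membranes, had 5.34, 4.10 and 6.11 against 5.04, 4.73 and 5.36, and C25H16orf58 had 5.21, 6.33 and 4.603 against 4.82, 5.27 and 5.22. C25H7orf26, the Integrator complex subunit INTS15, had 8.72, 6.40 and 5.04 against 6.83, 7.04 and 7.12. These log2 fold changes were between -0.06 and 0.08, each smaller than its standard error. Such a value can also hide opposite differences, as in C16H1orf115, whose log2 fold change of -0.08 came from 71.0, 92.1 and 3.25 in the calves and 29.7, 25.4 and 29.0 in the bulls. Here the bulls lay between calf 3 and the other calves, and without calf 3 the gene was called lower (log2 fold change -1.50).

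The 39 genes that were not tested were low in most libraries. Of these, C11H2orf16, C3H1orf68 and C7H5orf46 were listed at 0 in every library, and 29 of the 246 never reached an FPKM of 1. The other 10 reached it somewhere, 8 of them in calf 3 and 5 in calf 3 only. C15H11orf87, chosen here after its values were seen, had 0.0356 and 0.0680 in calf 1 and calf 2, 29.0 in calf 3 and at most 0.0134 in the bulls. C2H2orf80 had 0.156, 0.494 and 3.59 in the calves and at most 0.0896 in the bulls.

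Calf 3 differed from calf 1 and calf 2 in a minority of the open reading frame genes. On the log2(FPKM + 1) scale it was at least 2-fold above their mean in 17 of the 207 tested (8.21%, against 13.8% of all genes tested) and at least 2-fold below it in 27 (13.0%, against 15.4%), while calf 1 and calf 2 were 2-fold apart in 3. The largest rise was in C26H10orf90, at 0.0154, 0.112 and 14.8 in the calves and 11.1, 13.2 and 12.5 in the bulls. Calf 3 was above every bull. The gene was not called with it, and was called higher in bulls without it (log2 fold change 3.64) and with array weights (3.57). C29H11orf24 had 5.18, 5.004 and 33.7 in the calves and 3.58, 2.92 and 3.52 in the bulls, C2H2orf72 had 1.84, 2.55 and 13.6 against 1.02, 0.918 and 0.361, and C11H2orf73 had 0.10002, 0.345 and 4.77 against 18.3, 22.5 and 26.7. C29H11orf24 and C2H2orf72 were below the calves in every bull without being called, although C2H2orf72 was called lower after quantile normalization (-2.28), with a common total (-2.31) and without calf 1 (-2.05). C11H2orf73 was called higher with and without calf 3.

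The largest falls in calf 3, after C16H1orf115 and C3H1orf146 above, were in C15H11orf96, C18H19orf48 and C3H1orf54. C15H11orf96 had 65.4, 47.7 and 12.3 in the calves and 9.22, 12.9 and 11.5 in the bulls, so that calf 3 lay among the bulls. C18H19orf48 had 28.3, 37.4 and 5.18 in the calves and 14.0, 13.3 and 13.3 in the bulls, and C3H1orf54 had 20.5, 9.72 and 1.38 against 5.64, 5.34 and 6.40, with calf 3 the lowest library in both. None of the 3 was called with all libraries weighted alike, and all 3 were called lower in bulls without calf 3, at log2 fold changes of -2.23, -1.21 and -1.16, and with array weights, at -2.18, -1.15 and -1.13. C15H11orf96 was also called lower with calf 3 after quantile normalization (-2.14) and with a common total (-1.93). The neural, Leydig and Sertoli marker sums of calf 3 given above moved with these differences, and their part in them was not tested.

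**Figure D4:**
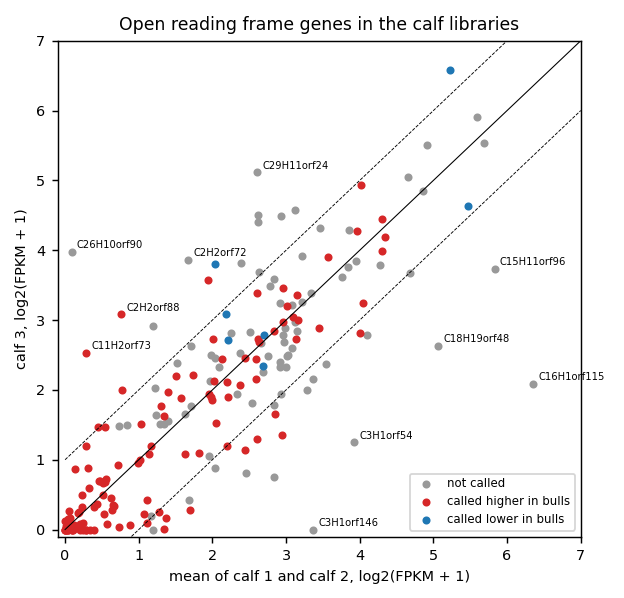
Level in calf 3 against the mean of calf 1 and calf 2, both as log2(FPKM + 1), for the 207 tested open reading frame genes, coloured by their call in bulls; the solid line marks equality and the dashed lines a 2-fold difference. In 17 genes calf 3 lies on or above the upper line and in 27 on or below the lower line, and the 10 genes with the largest differences are named.

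The table of transcripts split the 246 genes into 840 transcripts, 344 with an Ensembl identifier and 496 assembled by the authors, and the gene values equalled the sum of their transcripts in all 246 (tolerance 0.001 FPKM). Of these, 331 transcripts of 194 genes were tested, 203 (61.3%) were called higher in bulls and 12 (3.63%) lower, against 34.8% and 9.37% of all 23212 transcripts tested. In 18 genes a transcript was called although the gene was not. C7H19orf67 was the only gene with transcripts called in opposite directions. Its transcript C7H19orf67-202 had 7.23, 7.88 and 6.79 in the calves and 2.94, 2.71 and 3.43 in the bulls (log2 fold change -1.05, SE 0.18), and C7H19orf67-203, which starts and ends further along the chromosome, had 0.0786, 0.205 and 0.0546 in the calves and 5.35, 4.37 and 3.37 in the bulls (log2 fold change 2.26, SE 0.19). The calves thus had nearly all of the gene's FPKM in 1 transcript and the bulls in both, while the gene total was 7.31, 8.08 and 6.85 against 8.29, 7.08 and 6.81.

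The leading transcript could be compared in 69 genes. In 4 of them 1 transcript led in all 3 calves and another in all 3 bulls. In some others the leaders of calf 1 and bull 1 differed but were not shared by the whole group, as in C7H19orf67. In C15H11orf49, which is CSTPP1 and regulates the polyglutamylation of tubulin, C15H11orf49-201 led in the calves at 1.61, 1.86 and 9.95 and had 6.68, 6.03 and 6.11 in the bulls. C15H11orf49-202 had 1.42, 0.767 and 0.944 in the calves and led in the bulls at 33.6, 36.3 and 27.1. C15H11orf49-202 was called (log2 fold change 4.03, SE 0.21, adjusted p = 3.82e-05). C15H11orf49-201 was not (0.75, SE 0.57), with calf 3 above every bull, and was called higher without calf 3 (1.41). In C29H11orf54, the assembled transcript TCONS_00252736, which starts at 1050735 on chromosome 29, was listed at 0 in all calves and had 11.2, 14.4 and 11.6 in the bulls. The transcript TCONS_00252739, which starts at 1056371, had 5.37, 3.52 and 17.02 in the calves and 2.47, 2.42 and 2.42 in the bulls. The gene total was 7.001, 6.29 and 21.5 against 14.3, 17.7 and 14.8, so that calf 3 was above every bull, and the gene was called higher without it (log2 fold change 1.11) and with array weights, but not with all libraries weighted alike. The other two were C21H14orf28, where C21H14orf28-201 rose from 0.824, 0.435 and 0.260 to 5.57, 6.03 and 5.28, and C3H1orf52, where C3H1orf52-201 rose from 2.87, 2.27 and 1.87 to 14.8, 18.1 and 24.0.

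The transcripts included 62 that the table names as antisense, in 42 genes, and their FPKM was counted in the gene's value. Of the 9 tested, 7 were higher in bulls and none was lower, against 34.8% and 9.37% of all transcripts tested. In C8H9orf72, which works with SMCR8 in autophagy and lysosome regulation, the gene had 10.4, 11.4 and 13.9 in the calves and 23.5, 27.4 and 24.3 in the bulls (log2 fold change 1.02, SE 0.17, adjusted p = 0.00273). Its antisense transcripts had 0.107, 0.188 and 0.0807 in the calves and 7.32, 9.60 and 7.27 in the bulls, or at most 1.64% of the gene's FPKM in the calves and 31.2%, 35.1% and 29.97% in the bulls. Its main transcript C8H9orf72-202 had 9.09, 10.4 and 12.6 against 15.4, 17.05 and 16.4, every bull above every calf but under a 2-fold change (log2 fold change 0.58, SE 0.17). Without the antisense transcripts the gene's log2 fold change was 0.50 and it was not called. The call, close to the 2-fold limit, was also lost after quantile normalization (0.39), with a common total (0.70) and without calf 1 (0.93), calf 2 (0.998) or bull 2 (0.96). In C16H1orf159, which was not called, the antisense share was 1.15% to 4.26% in the calves and 31.4% to 35.2% in the bulls. Leaving out all antisense transcripts changed 2 calls among the open reading frame genes, C8H9orf72 being lost and C1H21orf58 gained.

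**Figure D5:**
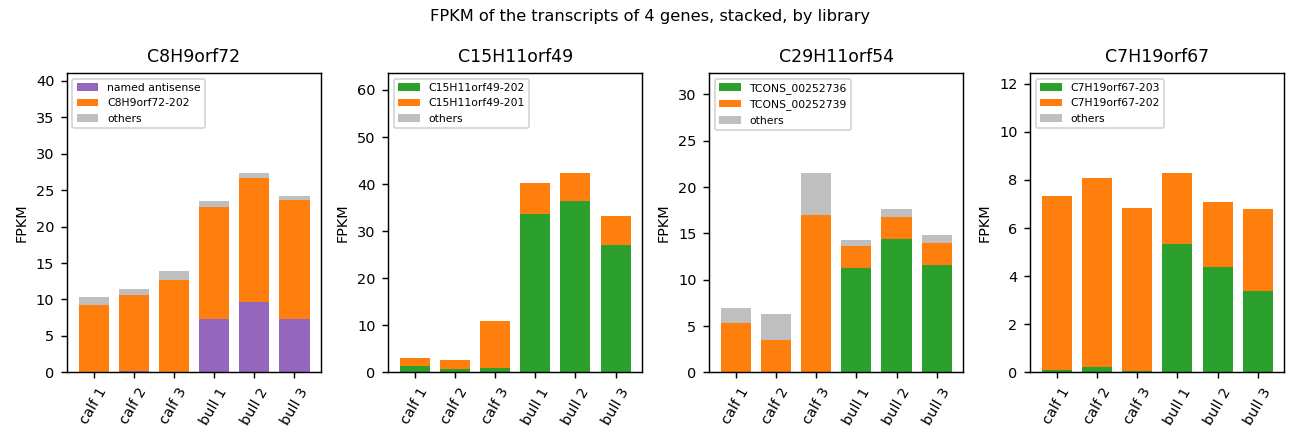
FPKM of the transcripts of C8H9orf72, C15H11orf49, C29H11orf54 and C7H19orf67, stacked in each of the 6 libraries, with the transcripts named in the text in colour and all others in grey; each axis starts at 0. The transcripts named antisense reach 7.27 to 9.60 in the bulls for C8H9orf72, and the green transcripts of the other 3 genes are at most 1.42 in the calves and between 3.37 and 36.3 in the bulls.

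The loci bear on how firmly these values belong to the named gene. Of the 246, 113 overlapped another Ensembl gene of the table, among them 5 of the 15 most increased, such as C15H11orf71, which overlapped RBM7, C13H20orf144, which overlapped NECAB3, and C26H10orf120, which overlapped SPADH1, a spermadhesin gene. The tables give no strand, and whether the levels were counted by strand is not given in the sources used here, so reads of such pairs may have been shared. The share called higher was 57.8% of the 102 tested with an overlap and 57.1% of the 105 without. RefSeq had a gene for 214 of the 246, all protein coding, and under another symbol for 36, such as FREY1, CFAP95 and TEKTIP1 above. Of the 35 renamed genes tested, 54.3% were called higher, and of the 149 that kept the name, 56.4%. Of the 23 tested with no RefSeq match, 69.6% were called higher. Of all genes tested 35.7% were, and of Ensembl genes 27.3%.

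For comparison, 2 other families named by a feature or a site of expression were counted in the same fit, with no test between families. Of 124 tested genes named CCDC for a coiled-coil domain, 75 (60.5%) were called higher and 5 lower, with a median log2 fold change of 1.81, close to the open reading frame genes. Of 48 tested genes named SPATA or TEX for the testis, 41 (85.4%) were higher and none lower, with a median of 4.72.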

How the data were processed

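The deposited tables give an FPKM value per gene and per transcript for each of the 6 libraries. Per the study's methods, the authors isolated total RNA, made strand-specific libraries after removal of ribosomal RNA, took out ribosomal reads (Bowtie2), aligned the rest (TopHat2) and built transcripts (StringTie). The tool that made the deposited FPKM of genes is not given in the sources used here. The study lists the reads of each library. No counts per gene were given, and the steps of low values did not give whole reads. The number of reads behind each value is therefore unknown. Coordinates are those of the table; the methods name UMD3.1.1, while the scaffold names and 213 of the 214 loci matched to RefSeq (ARS-UCD2.0 table, used for names) follow an ARS-UCD assembly.

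Features that reached an FPKM of 1 in 3 or more libraries were fitted on log2(FPKM + 1), a scale that understates the change of low genes, with limma 3.58.1 in R 4.3.3 (moderated, with a trend), 3 calves against 3 bulls, with Benjamini-Hochberg adjustment over all features tested. The code was tested on data simulated with the spread of these libraries and a log2 change of 2. There, 118 of 200 changed genes (59%) and 94 of 200 changed transcripts (47%) were called higher. Only 200 of 18115 genes were changed there, while 6474 were called higher in the data. These shares therefore do not give the share missed in the data. Outside the changed ones, 4 genes and 9 transcripts were called. A feature that was not called may therefore still differ. The threshold of a call was an adjusted p under 0.05 together with a 2-fold change in either direction. The labels do not exclude that part of the spread between libraries is technical. Named genes were the 15 most increased and up to 12 most decreased calls without overlap, the 6 of highest mean level, the 6 least changed, up to 4 per role list, the 5 largest rises and 5 largest falls of calf 3, and genes with transcripts called in opposite directions. The members and the lists were chosen with earlier results of these data known. Replicate numbers were not treated as pairs. The alternatives were other pseudocounts, no filter, quantile normalization, a common total, array weights, a replicate block, no trend, no fold limit and each library left out. Of the marker lists, the 8 spermatogonial genes, set beside no result, summed to 125, 165 and 284 in the calves and to between 288 and 299.97 in the bulls. In calf 3 most of that sum was UCHL1 (201) and ID4 (50.2), while DDX4 (0.0152) and DMRT1 (0.0938) were near 0. Among the calves, 4 of the 8 were lowest and 4 highest in calf 3. No sequence table was used here, so the planned promoter search and protein sequences are not given.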

Additional observations from a re-analysis of the deposited data

How the results depend on the processing

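The count of open reading frame genes called higher in bulls (119) stayed within 1.5 times of itself under every alternative run, from 100 after quantile normalization to 127 with no fold limit. The count called lower (7) did not. It was 11 with a pseudocount of 0.1, 26 after quantile normalization, 18 with a common total, 13 with array weights and 13 with no fold limit. Over all 18115 genes tested it moved from 1741 to 2207, 4538, 3071, 2470 and 2725 in the same order. Among the open reading frame genes, leaving out each library in turn gave 115 to 122 higher and 6 to 13 lower, with 12 lower without calf 1 and 13 without calf 3. For transcripts, 203 were higher and 12 lower. The count lower was 44 after quantile normalization (with 143 higher), 25 with a common total and 19 with array weights, and leaving out each library gave 193 to 201 higher and 10 to 19 lower, with 19 without calf 1 and 19 without calf 3. Over all 23212 transcripts tested the count lower was 2176, then 5884 after quantile normalization, 4041 with a common total and 3083 with array weights. The cause of these shifts was not tested.

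Replicate numbers were shared between the groups. The deviations of same-numbered libraries correlated at only 0.03, 0.02 and 0.03, which cannot decide whether the numbers pair the animals. The main fit did not treat them as pairs. With a replicate block, 118 genes were higher and 7 lower (C17orf100 was lost), and 201 transcripts were higher and 12 lower. Each calf correlated best with the bull of its own number, a hint from the data only.

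For 56 named genes, 14 alternatives each gave 750 values with the call as reported, 17 that lost it and 17 that gained one, in 12 genes, and no called value changed direction, while 25 uncalled values changed sign. The 12 include C8H9orf72, C17H12orf65, C7H19orf57 and C21H14orf132, described above. The alternative without antisense transcripts was chosen after seeing the data and left 119 higher and 7 lower. With 3 animals a group, 1 doubtful calf and no read counts behind the values, small differences and low levels are uncertain.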
